A study of Mus musculus with 6 samples.

Results

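Gap junctions are channels between touching cells, and their subunits, the connexins, are a gene family that vertebrates divide by sequence into alpha, beta, gamma and smaller groups. Connexins cross the membrane several times and assemble into hexameric hemichannels, which dock with those of the next cell and let ions and small metabolites pass. Pluripotent cells of the mouse embryo and embryonic stem cells are known to be coupled in this way. The 7 connexin genes described here, Gja1, Gja3, Gja4, Gjb1, Gjb2, Gjb5 and Gjc1, are 7 of the 20 connexin genes and of the 51912 genes in the table. They were selected on their counts at the 2 times, with their change already known, as a set in which beta connexins fall and Gja1 rises. Their levels and fold changes are therefore given as a description, without a test.

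R1 mouse embryonic stem cells, an established line, were held in 2iLIF medium and then given FGF2 at 100 ng/ml in N2B27, a serum-free medium. The 2 groups were sampled at 24 h and at 48 h, with 3 replicates each. Both groups carry FGF2 and the same change of medium, and libraries without FGF2 were not analysed here, so the effects of FGF2, of the medium and of time in culture cannot be told apart. The labels do not say whether replicates were separate cultures, and p-values then measure only the spread between these libraries. The libraries held between 19574969 and 23133148 estimated counts. The stem cell markers Pou5f1 and Sox2 were abundant at both times, at 1111 ± 1.99 and 403 ± 7.27 CPM at 24 h and at 1058 ± 15.2 and 312 ± 5.66 CPM at 48 h (mean ± SD, n = 3). CPM are counts scaled to a common library size, here with TMM factors that also allow for differences in composition. Other stem cell markers moved more: Nanog fell from 695 ± 24.6 to 174 ± 6.47 CPM, Esrrb from 569 ± 12.7 to 205 ± 0.622 and Zfp42 from 1034 ± 9.10 to 495 ± 23.7, while Lin28a rose from 192 ± 7.83 to 563 ± 4.86. Of the 8 listed, 3 rose and 5 fell, where 62.8% of all tested genes were called, and their summed level went from 4277 to 4375 CPM at 24 h to 3217 to 3295 CPM at 48 h.

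In the annotation (GENCODE M21, build GRCm38), all 7 genes have their coding sequence in 1 exon, as have 8 of the other 13 connexins. Their positions fall into 5 places. Gjb5 (chr4:127354809-127358181, minus strand) and Gja4 (chr4:127311421-127314039, minus strand) are near each other on chromosome 4. Gja3 and Gjb2 lie in a run with Gjb6, over 99.2 kb of chromosome 14. Gja1 (chr10:56377330-56402513, plus strand), Gjc1 (chr11:102799579-102819700, minus strand) and Gjb1 (chrX:101376378-101385629, plus strand) are the other members. The encoded proteins are 283, 226 and 271 residues long for the beta members Gjb1, Gjb2 and Gjb5, 333 to 417 for the 3 alpha members and 396 for Gjc1. The counts of all 20 connexin genes were whole numbers, the form counts take when no read is divided between similar genes. Exons of the 7 members overlap no other annotated gene.

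The 250 bases before the annotated start of Gja1, Gjb5 and Gja4 are shown because Gja1 had the largest increase among the 7 genes, Gjb5 the largest decrease, and Gja4 lies near Gjb5 on chromosome 4. The sequences and starts are from RefSeq (GRCm38.p6), read 5′ to 3′ along each gene's strand. Both strands were searched for 4 motifs, and capitals mark a match. The GC box was spelled GGGCGG. The TATA box was spelled TATAAA. The AP-1 site was spelled TGANTCA. The T-box site was spelled GGTGTGA.
Gja1, chr10:56377050-56377299, plus strand: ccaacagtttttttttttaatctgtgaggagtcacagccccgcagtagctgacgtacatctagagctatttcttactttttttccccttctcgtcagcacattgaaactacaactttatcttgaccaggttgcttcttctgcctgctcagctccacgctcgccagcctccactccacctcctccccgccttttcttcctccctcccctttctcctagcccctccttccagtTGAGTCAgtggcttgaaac
Gjb5, chr4:127358165-127358414, minus strand: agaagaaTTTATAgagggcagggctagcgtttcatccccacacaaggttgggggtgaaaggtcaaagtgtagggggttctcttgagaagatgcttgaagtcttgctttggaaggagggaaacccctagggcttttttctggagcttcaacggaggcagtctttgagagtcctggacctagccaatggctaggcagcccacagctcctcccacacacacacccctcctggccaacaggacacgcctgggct
Gja4, chr4:127314040-127314289, minus strand: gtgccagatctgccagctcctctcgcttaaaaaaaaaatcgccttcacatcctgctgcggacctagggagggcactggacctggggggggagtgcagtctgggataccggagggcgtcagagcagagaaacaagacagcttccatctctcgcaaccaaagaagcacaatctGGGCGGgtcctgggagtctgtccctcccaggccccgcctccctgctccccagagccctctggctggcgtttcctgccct
The Gja1 sequence held 1 AP-1 match, at positions -19 to -13 from the start. The spelling TGANTCA is the same on both strands, so this match has no strand. The Gjb5 sequence held 1 TATA match on the strand opposite to the gene, at -243 to -238, and Gja4 held 1 GC box at -79 to -74. Of the 32851 promoter windows of 300 bases in the table, 7.81% held the AP-1 letters, 13.6% the TATA letters, 35.7% the GC box and 3.98% the T-box letters. A match is only one of letters. The ratio of observed to expected CpG was 0.544 for the Gja1 window, 0.557 for Gja4 and 0.136 for Gjb5, against a median of 0.384 over all windows, so the Gja4 and Gjb5 windows were unlike in this measure. Of the 7 genes, 6 had at least 1 window in the table, and Gjc1 had none.

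Gja1 encodes Cx43, the most widely expressed connexin of mammals. Its transcripts were at 52.2, 56.3 and 54.5 CPM in the 24 h libraries and at 238, 241 and 246 CPM in the 48 h libraries. Every 48 h library was thus far above every 24 h library. The mean was 4.45-fold higher at 48 h, and the fitted log2 fold change was 2.15 (standard error 0.03). Among all 14889 tested genes this was the 161st largest fitted increase. In bulk RNA, more cells with a transcript and more transcript per cell cannot be told apart, and this holds for every gene below. The spread of Gja1 between replicates, an SD of 2.05 CPM around 54.4 at 24 h and of 4.32 CPM around 242 at 48 h, was far smaller than the step between the times.

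Gjb5 encodes Cx31.1, a connexin known from skin and from the trophoblast of the placenta. It was at 14.7, 13.96 and 17.5 CPM at 24 h and at 0.782, 0.503 and 0.992 CPM at 48 h. The 24 h libraries held 286 to 414 counts of it and the 48 h libraries 11 to 22, so the groups were far apart. The mean was 20.3-fold lower at 48 h (log2 fold change -4.34, standard error 0.17), the 11th largest fitted decrease of all tested genes. The 2 other beta connexins among the members did not share this pattern. Gjb1, which encodes Cx32 of liver and Schwann cells, had 19, 12 and 8 counts at 24 h and 5, 11 and 6 at 48 h (log2 fold change -0.86, standard error 0.46), and its groups overlapped. Its scaled sum was 1.82 times as high at 24 h (95% exact binomial interval 1.05 to 3.22, counting error only). This contrast chose the members, so nothing is read from that interval or from those of other members. The fold change of Gjb1 ran from -0.44 without 24 h replicate 1 to -1.27 without 48 h replicate 2. Gjb2, which encodes Cx26 of the inner ear and skin, had 6, 7 and 4 counts at 24 h and 7, 7 and 11 at 48 h. Its groups overlapped too, and its summed count, scaled for depth, was 1.43 times as high at 48 h, with a 95% exact binomial interval from 0.743 to 2.83 that covers counting error only. The description of the set as one in which beta connexins fall therefore applied to Gjb5 but not to Gjb2, and for Gjb1 the lower mean rested on overlapping libraries.

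Gjc1, the only gamma member, encodes Cx45, known from the early heart and smooth muscle. It stood at 54.4, 56.9 and 55.9 CPM at 24 h and at 38.2, 39.9 and 38.1 CPM at 48 h. The groups did not overlap, and the mean was 1.44-fold lower at 48 h (log2 fold change -0.53, standard error 0.04). Its change was small beside those of Gja1 and Gjb5. Of the 2 low alpha members, Gja4, which encodes Cx37 of endothelium and the ovarian follicle, had 6, 10 and 13 counts at 24 h and 1, 3 and 2 at 48 h. Each 24 h library was above each 48 h library, and the scaled sum was 4.96 times as high at 24 h (95% exact binomial interval 2.02 to 14.6, counting error only). Gja3, which encodes Cx46 of the lens, had 1, 2 and 4 counts at 24 h and 1 in each 48 h library. These were too few to describe a change at this depth (2.40 times as high at 24 h, interval 0.547 to 14.4). As for Gjb1, nothing is read from the intervals of Gja4 and Gja3, since this contrast chose the members.

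**Figure D1:**
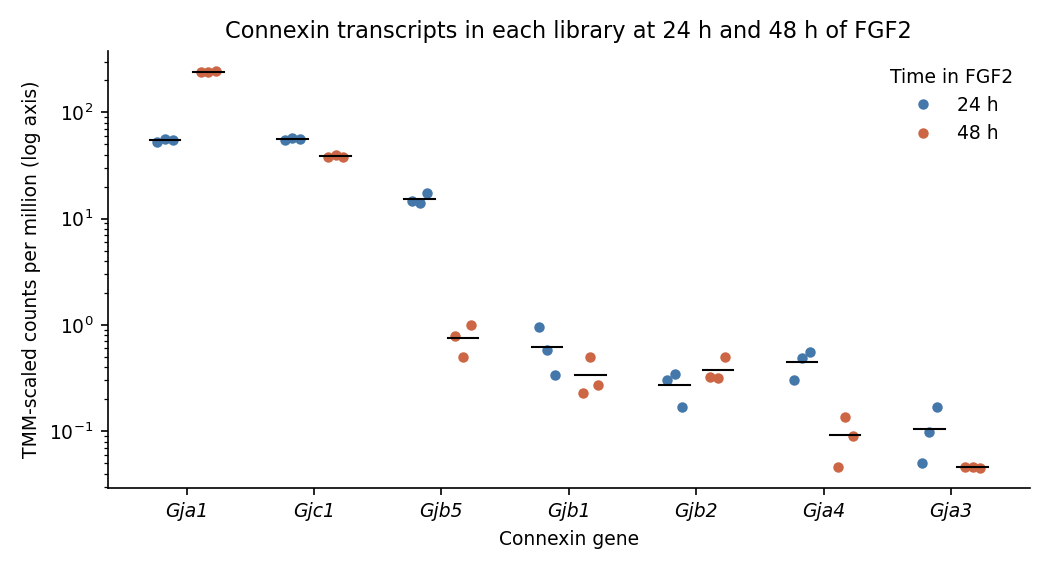
Each point is 1 library, in blue for 24 h of FGF2 and red for 48 h, black lines are means, and the vertical log axis gives TMM-scaled CPM. Gja1 lies at 238 to 246 CPM at 48 h against 52.2 to 56.3 at 24 h, Gjb5 goes from 13.96 CPM or more to 0.992 or less, and the groups of Gjb1 and Gjb2 overlap.

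Of the 7 members, 4 had enough counts to be tested with all genes, Gja1, Gjb1, Gjb5 and Gjc1, and 3 of the 4 were called at a threshold of 0.05 on the adjusted p of edgeR's test, 1 upward and 2 downward. Over all 14889 tested genes the same rule called 62.8%, 30.9% upward and 31.9% downward. The groups of the same 3 genes did not overlap, as was so for 66.9% of all tested genes. Since this contrast chose the members, nothing is read from these counts. Fitted changes of at least 2 on the log2 scale, as in Gja1 and Gjb5, were found in 2.93% of tested genes, and called changes of -3 or below, as in Gjb5, in 0.383%. Gjb1 was also called lower when 24 h replicate 3 was left out (-1.19). Gja4 was called lower in the 5 alternatives in which it entered the test, without a filter and on leaving out 24 h replicate 1 or any single 48 h library. These calls of Gjb1 and Gja4 also come from the contrast that chose the members, so nothing is read from them. Every member kept its direction in each alternative that gave it a value.

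The other 13 connexins and the 3 pannexins, proteins of similar form that make large channels to the outside of the cell, were examined next. Of these 16 genes, 3 were tested and 2 were called, 66.7% against 62.8% of all tested genes. Panx1, a widely expressed pannexin, was at 9.20 ± 0.437 CPM at 24 h and 8.29 ± 0.895 CPM at 48 h (SD, n = 3; log2 fold change -0.15, standard error 0.10, edgeR adjusted p = 0.185). Gjb6, Gjd2 and Gje1 had 0 counts in all 6 libraries, where 3 counts over a group correspond to 0.0468 CPM at 24 h and 0.0456 CPM at 48 h.

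Around Gjb5 and Gja4 on chromosome 4, the nearest 5 protein-coding genes on each side that are not connexins were followed. Of these 10 neighbours, 6 were tested, 0 rose and 3 fell, 50% against 62.8% of all tested genes. Dlgap3, whose start lies at -185.6 kb from that of Gjb5, encodes a scaffold protein of synapses and fell from 81.8 ± 3.07 to 27.6 ± 1.84 CPM (log2 fold change -1.57, standard error 0.05, edgeR adjusted p = 3.56e-14). Tmem35b fell by 1.06 on the log2 scale, though its exons overlap those of Zmym6 by 682 bases on the same strand, and Zmym6 and Zmym1 did not pass (log2 fold changes -0.05 and -0.06). On the other side of Gjb5 the nearest tested neighbour, Zscan20, lies 1229 kb away and had a log2 fold change of 0.01.

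Levels of different genes can be compared only per length, and the answer depended on the length used, since the exons of Gja1 span 10257 bases in all but 3889 in its longest transcript. Per kb of all exons, the order of the members at 24 h was Gjc1 (11.1 ± 0.253 CPM per kb; SD, n = 3), Gjb5 (8.95 ± 1.10) and Gja1 (5.30 ± 0.200). Per kb of the longest transcript it was Gjc1 (16.3 ± 0.371), Gja1 (13.98 ± 0.527) and Gjb5 (8.95 ± 1.10), so Gja1 and Gjb5 changed places. Neighbours in either order differed by more than their SDs. The lower ones were Gjb1 at 0.366 ± 0.180, Gja4 at 0.265 ± 0.0774, Gjb2 at 0.112 ± 0.0374 and Gja3 at 0.0357 ± 0.0203 CPM per kb of exon, among which Gjb1 and Gja4 lay within their SDs. At 48 h Gja1 led under both lengths, with 23.6 ± 0.421 or 62.1 ± 1.11 CPM per kb, followed by Gjc1 with 7.74 ± 0.212 or 11.3 ± 0.311. Gjb5 was at 0.441 ± 0.143 CPM per kb of exon. Gjb1 at 0.196 ± 0.0862 and Gjb2 at 0.158 ± 0.0420 lay within their SDs, Gja4 was at 0.0541 ± 0.0270, and Gja3 was lowest at 0.0154.

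**Figure D2:**
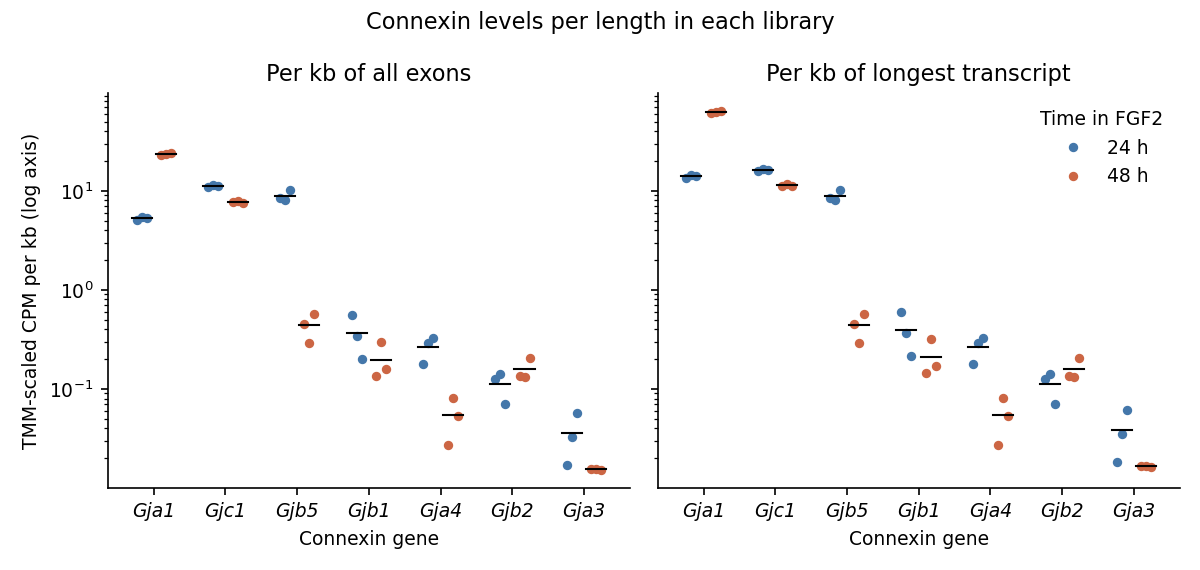
Each point is 1 library, in blue for 24 h of FGF2 and red for 48 h, black lines are means, and the vertical log axis gives TMM-scaled CPM per kb of all exons (left) or of the longest transcript (right). Gja1 is highest at 48 h in both panels (means of 23.6 and 62.1), while at 24 h it lies below Gjb5 on the left (5.30 against 8.95) and above it on the right (13.98 against 8.95).

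A list of 20 genes whose products bind, move or phosphorylate connexins was followed next. Of these, 19 were tested, 11 rose and 5 fell, 84.2% against 62.8% of all tested genes, with a median log2 fold change of 0.11 against -0.01. With library size as the only scaling, 9 rose and 7 fell. Nothing particular to the list is claimed from these counts. Most changes were small. Tjp1 encodes ZO-1, the scaffold that binds the tail of Cx43 at the edge of gap junction plaques, and rose from 256 ± 2.36 to 307 ± 6.27 CPM (mean ± SD of 3 libraries) with a log2 fold change of 0.26 (edgeR adjusted p = 1.02e-08). Tjp3, for the related ZO-3, fell from 11.6 ± 1.06 to 5.17 ± 0.726 CPM (-1.16, edgeR adjusted p = 1.20e-07).

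The largest increases of this list were those of Dbn1, which encodes the actin-binding protein drebrin, from 8.51 ± 0.381 to 20.2 ± 1.26 CPM (log2 fold change 1.25, edgeR adjusted p = 6.58e-10), and Ccn3, a secreted matrix protein that binds Cx43, from 0.628 ± 0.191 to 1.31 ± 0.139 CPM (1.03, edgeR adjusted p = 0.00575). Mapk7 and Ezr rose by 0.29 each. Among kinases known to act on Cx43, Csnk1e fell from 74.0 ± 2.43 to 48.2 ± 1.49 CPM (-0.62), while Csnk1d, for the related casein kinase, rose by 0.25. Prkca and Src fell, with log2 fold changes of -0.45 and -0.41. Nedd4, for a ubiquitin ligase of Cx43, rose from 2197 ± 15.3 to 2433 ± 24.8 CPM (0.15). Cav1 had 0 counts in every library. Csnk1e, Csnk1d, Ezr, Mapk7, Prkca and Tjp3 have exons that overlap those of genes transcribed the other way, and without strand the reads of both cannot be told apart.

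Of 10 transcription factors known to act on single connexin genes in other tissues, 8 were tested, 3 rose and 3 fell. That was 75%, against 62.8% of all tested genes, and nothing particular to the list is claimed from these counts. Irx3 went from 0.708 ± 0.119 to 8.32 ± 0.0158 CPM (mean ± SD of 3 libraries; log2 fold change 3.55, edgeR adjusted p = 4.05e-12), Jun, a subunit of AP-1, from 2.71 ± 0.136 to 5.76 ± 0.266 CPM (1.09, edgeR adjusted p = 9.26e-07) and Sp1, which binds GC boxes, from 355 ± 1.54 to 482 ± 11.8 CPM (0.44, edgeR adjusted p = 7.22e-12). Tbx3, a T-box repressor, fell with a log2 fold change of -3.57. Sp3 had -0.06, a call that was lost with DESeq2 and on leaving out 24 h replicate 3 or 48 h replicate 1 or 2 (each -0.06 or -0.05). Tbx2, a relative of Tbx3 known to repress Gja1 in the heart, had a log2 fold change of -0.62 (edgeR adjusted p = 0.161). Irx3, Jun, Tbx3 and Sp3 overlap antisense genes in their exons. Whether any of these factors acts on connexin genes in these cells was not tested.

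**Figure D3:**
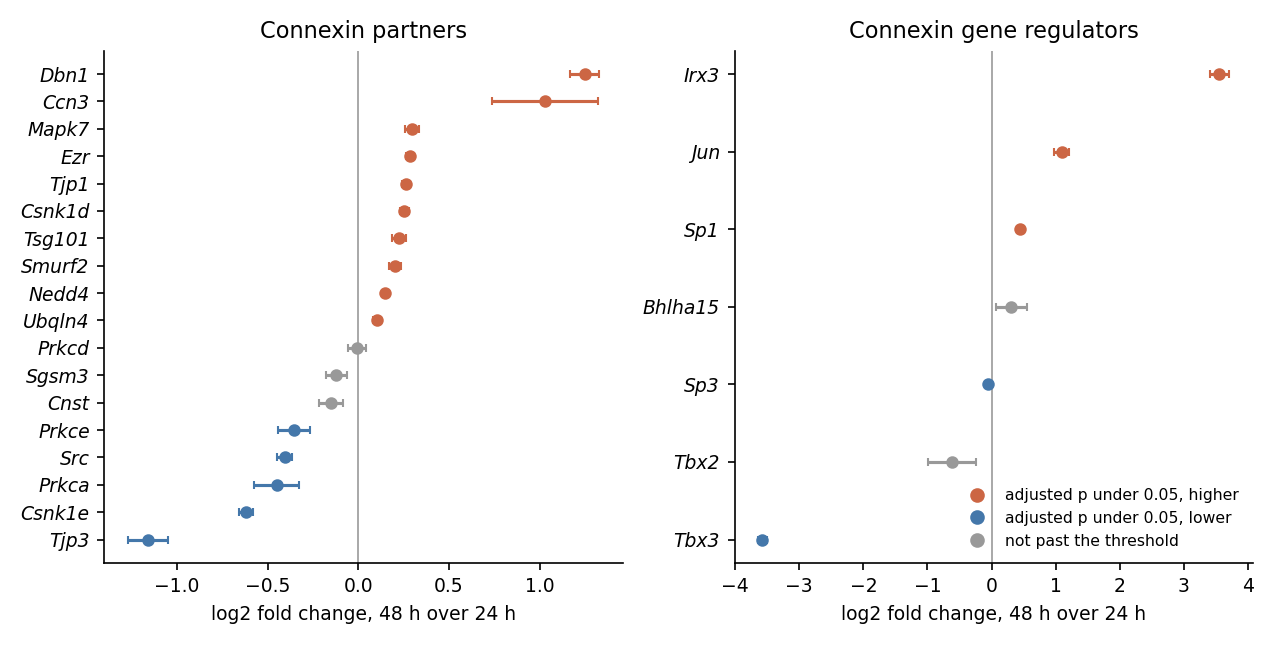
Points are fitted log2 fold changes of 48 h over 24 h and bars their standard errors, for genes known to act on connexin proteins (left) or on connexin genes (right), in red where called higher, blue where called lower and grey where not called. Partners run from Tjp3 at -1.16 to Dbn1 at 1.25, and regulators from Tbx3 at -3.57 to Irx3 at 3.55.

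Markers of other cell types were measured because several members are best known outside stem cells. Over all tested genes 62.8% were called, 30.9% upward and 31.9% downward, and nothing particular to the marker lists is claimed from their counts. Of 12 trophoblast markers, 8 were tested, 0 rose and 5 fell, so 62.5% were called. The call of Krt18, 1 of the 5, was lost in several alternatives. The summed level of the trophoblast markers was between 71.9 and 74.6 CPM at 24 h and between 36.3 and 40.5 CPM at 48 h. Krt8 fell from 20.6 ± 0.267 to 5.26 ± 0.541 CPM and Tfap2c from 6.60 ± 0.101 to 1.55 ± 0.235 CPM (SD, n = 3; edgeR adjusted p = 5.08e-12 and 1.49e-09), while of the factors that define trophoblast stem cells Eomes was present, at 16.1 ± 1.35 and 13.2 ± 1.05 CPM, and Cdx2 and Elf5 had at most 2 counts in any library. Of 10 primitive endoderm markers, 5 were tested, 0 rose and 3 fell, so 60% were called. Their summed level was 169 to 180 CPM at 24 h and 116 to 121 CPM at 48 h. Gata4, a defining factor of that lineage, fell from 5.84 ± 0.856 to 2.25 ± 0.217 CPM (edgeR adjusted p = 4.89e-07), and Gata6, another, had at most 9 counts. Most of the endoderm sum came from Col4a1 (121 ± 3.22 CPM at 24 h and 102 ± 2.90 at 48 h) and Lama1 (43.1 ± 3.39 and 10.8 ± 0.112). The few counts of Gata6 and Foxa2 had higher means at 48 h (0.136 and 0.0471 CPM at 24 h, 0.259 and 0.107 at 48 h). The trophoblast and endoderm sums moved in the same direction as Gjb5, and their part in the decrease was not tested. Of 10 fibroblast markers, a cell type rich in Gja1, 5 were tested, 1 rose and 2 fell, so 60% were called. Their summed level was 5.66 to 7.16 CPM at 24 h and 4.11 to 5.82 CPM at 48 h. Lum, Postn and Mgp were at 0 in all libraries, and the marker that rose, Dcn, went from 0 counts in each 24 h library to between 23 and 32 in each 48 h library.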

How the data were processed

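RNA was measured in 6 mRNA libraries, per the labels' protocols. The table the authors deposited holds 1 estimated count per gene and library, unscaled for depth or length. The submitters' processing notes name cutadapt 1.9.1, STAR 2.5.2, RSEM 1.3.0 and the build GRCm38. The annotation and the use of strand are not given in the sources used here. Each column name matched 1 sample title. Symbols came from GENCODE M21 and matched 51633 of 51912 identifiers.

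Counts were rounded, filtered with filterByExpr (minimum count 10; 14889 genes), scaled by TMM and compared, 48 h over 24 h, with edgeR's quasi-likelihood test (edgeR 4.0.16, R 4.3.3), group only, with Benjamini-Hochberg adjustment over all tested genes and a threshold of 0.05. The standard error is the size of the fold change over the square root of F. On simulated counts for 14889 genes, 200 of them changed, log2 changes of 0.5 were recovered in 67.7% of 65 genes. Changes of 1 were recovered in 83.8% of 68 genes and changes of 2 in 100% of 66. In the data a far larger share, 62.8% of tested genes, was called, so these rates do not carry over to the data.

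Members and lists were chosen with earlier results of these data known. Neighbours were the 5 protein-coding genes on each side of a member. All members are described. In other lists up to 4 called genes per direction and 3 with the highest CPM could be named, and, for Gja1 and Gjb5, the 3 genes with the nearest profile. Others, such as the further neighbours, Tbx2 and single marker genes, were named after their values were seen. Alternatives were RLE and library-size scaling, 2 filters, DESeq2 1.42.0, limma voom (limma 3.58.1), the replicate block, a threshold of 0.01, another gene length and leaving out each library. Some genes of the lists are not reported here. A planned comparison of the proteins was not made, as no protein sequences were used here.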

Additional observations from a re-analysis of the deposited data

How the results depend on the processing

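Of the 16 other connexins and pannexins, 2 changed in every alternative except 1: where every library had to hold 10 counts or more, the number was 1, because 1 gene no longer entered the test. The count of connexin partners that changed was 16 or 17 and that of regulators 5 or 6 throughout. Library size as the only scaling put the median log2 fold change over all genes at -0.07 in place of -0.01, and 39.9% in place of 49.2% of called genes were then higher. It took the fold changes of Gja1 and Gjc1 to 2.09 and -0.59, and the neighbours of the members from 14 higher and 10 lower to 12 and 13. Leaving out 1 library each gave fitted log2 fold changes of Gjb5 from -4.58 to -4.11 and of Gjb1 from -1.27 to -0.44. For Gja4 and Gja3 the log2 ratios of summed scaled counts, which are not fitted values, then ran from -2.73 to -2.00 and from -1.58 to -0.70. Across genes, DESeq2 called 7986 and the replicate block 9235 of 14889, against 9345. With the replicate block the only listed gene that lost its call was Adam11, a neighbour of Gjc1. Deviations of same-numbered libraries correlated at -0.05, -0.04 and -0.01, which does not show the replicate numbers to be pairs. Depth limits Gja3, Gja4, Gjb1 and Gjb2, which had at most 19 counts in any library.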

Other observations

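The genes with profiles nearest to that of Gja1 over the 6 libraries were Acsl4, which encodes an enzyme that activates long-chain fatty acids, Jph4, which encodes a junctophilin, and Efnb2, an ephrin ligand. Acsl4 rose from 63.5 ± 2.32 to 290 ± 8.62 CPM (SD, n = 3), Jph4 from 2.46 ± 0.0715 to 12.1 ± 0.321 CPM and Efnb2 from 39.6 ± 2.21 to 196 ± 7.37 CPM. The root-mean-square differences from Gja1 in centred log2 CPM were 0.05, 0.07 and 0.10. Among the genes nearest to Gjb5 were Msc, a basic helix-loop-helix factor, at 0.20, and Lefty2, an inhibitor of Nodal, at 0.36. Lefty2 had 33.9 ± 5.51 CPM at 24 h and 2.54 ± 0.277 CPM at 48 h. These genes were picked for their likeness over all 6 libraries, so their fold changes repeat those of Gja1 and Gjb5.

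Around the members outside chromosome 4, neighbours moved in both directions. Of the 50 distinct neighbours of all members, 35 were tested and 24 changed (68.6%, against 62.8% of all tested genes), 14 upward and 10 downward. The downward count was 5 with DESeq2 and 6 without 24 h replicate 3 or without 48 h replicate 2, with 13 upward in each. Beside Gjc1, which fell, 6 neighbours were tested, 3 rose and 1 fell (66.7%, against 62.8% of all tested genes). Fzd2, a WNT receptor, rose from 6.85 ± 0.471 to 20.8 ± 2.52 CPM (log2 fold change 1.60, edgeR adjusted p = 4.41e-10). Meioc rose from 11.8 ± 0.542 to 25.5 ± 1.02 CPM (1.10, edgeR adjusted p = 3.54e-10). Adam11 fell (-0.83, edgeR adjusted p = 0.0347), a call lost with DESeq2 and other alternatives. Its start lies at -38.1 kb from that of Gjc1, against -195.2 kb for Fzd2 and -135.9 kb for Meioc. Around Gja1, which rose, 6 of 7 tested neighbours changed (85.7%, against 62.8% of all tested genes), 4 upward and 2 downward. Their starts lay from -2780.6 kb (Asf1a) to 1138.4 kb (Serinc1) from that of Gja1, with Msl3l2 the nearest at -270.4 kb. Both downward calls, of Fam184a and Tbc1d32, were lost in some alternatives. The upward call of Hsf2 was lost with library size as the only scaling.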
